A study of Mus musculus with 6 samples.

Results

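The genes described here encode RNA-binding and chromatin proteins of the Lin28, Hmga and Igf2bp families, with the ubiquitin ligase gene Trim71. Of 8 genes chosen by name (Lin28a, Lin28b, Hmga1, Hmga2, Igf2bp1, Igf2bp2, Igf2bp3 and Trim71), 6 had at least 1 probe set named by the platform annotation, out of 18182 genes in all. They were represented by 19 probe sets. Hmga1 and Igf2bp2 were not analysed here. RNA came from limb cells sorted for nuclear GFP from Tg:Pax7-nGFP mouse embryos on a C57BL/6:DBA2 background, where the reporter follows Pax7, the transcription factor of skeletal muscle stem and progenitor cells. One group was dissected at E12.5 and the other at E17.5, with 3 arrays each, replicates A, B and C, labelled as biological. No treatment separated the groups, and the number of embryos behind an array is not given in the sources used here. Because GFP protein can outlast the gene's activity, a sorted cell need not still express Pax7.

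Lin28 proteins bind the precursor of the let-7 microRNA and block its maturation, and let-7 in turn represses mRNAs that carry its target sites, among them those of Lin28b, Hmga2, Trim71 and the Igf2bp genes. The group is known for high expression in early embryos and a decline as tissues mature. Hmga2 is an architectural chromatin protein that supports proliferation of myoblasts, and Igf2bp proteins bind mRNAs such as that of Igf2.

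Target sites in the mRNAs of these genes were not examined here, and the let-7 sequences are given as background. They come from the RefSeq table of build GRCm38.p6, written 5′ to 3′ with the seed, bases 2 to 8, in capitals. All 9 mature 5p forms had the same seed and a length of 22 bases, and differed outside it.
let-7a-5p: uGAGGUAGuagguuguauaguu
let-7b-5p: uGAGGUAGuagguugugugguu
let-7c-5p: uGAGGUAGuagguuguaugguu
let-7d-5p: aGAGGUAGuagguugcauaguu
let-7e-5p: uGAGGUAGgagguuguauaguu
let-7f-5p: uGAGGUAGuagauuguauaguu
let-7g-5p: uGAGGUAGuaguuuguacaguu
let-7i-5p: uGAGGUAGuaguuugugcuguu
miR-98-5p: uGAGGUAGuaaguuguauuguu

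The zinc knuckles of Lin28 are known to contact a GGAG element in the precursor. Of 12 hairpins of the family, 9 held GGAG between the mature arms, and those of let-7b, let-7c-2 and miR-98 did not. The hairpin of let-7g (chr9:106178840-106178927, plus strand, GRCm38.p6) is shown with that element in capitals.
Mirlet7g: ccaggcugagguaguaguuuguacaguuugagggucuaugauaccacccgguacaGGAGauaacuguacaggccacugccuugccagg
The arrays measured no mature microRNA, so let-7 itself has no value here.

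The values are log2 signals per probe set after GCRMA, and means are given ± SD (n = 3 arrays per age). A difference is the E17.5 mean minus the E12.5 mean, with limma's standard error (SE) and a p-value adjusted by Benjamini-Hochberg over all genes. A gene is called when that adjusted p is under 0.05. Probe sets that lack specific signal crowd at low values after GCRMA, mostly under 4, so a value there is not a measured level. Array medians lay between 3.38 and 3.47, and the number of arrays limits the precision. E17.5 replicates A and B were unusually alike. Over 8758 bright genes their difference had an SD of 0.152, whereas the 5 remaining same-age pairs gave 0.412 to 0.551. Whether they are independent is not given in the sources used here, so results are also given with their mean as 1 sample (the averaged fit). The sorted cells carried muscle progenitor transcripts at both ages. Pax7 itself was at 11.46 ± 0.28 and 12.37 ± 0.15 and was called higher (difference 0.91, adjusted p = 0.0105). Myod1 was at 10.83 ± 0.22 and 10.99 ± 0.05 and was not called, while other myogenic genes moved in either direction.

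At E17.5 4 of the 6 measured genes were lower, namely Trim71, Hmga2, Igf2bp1 and Igf2bp3, and 0 were higher. Lin28a and Lin28b lay in the background range at both ages and were not called. Over all genes 8.73% were called lower, and 15.1% of genes with an E12.5 mean of at least 6. The genes described here were chosen with earlier results of these data known. The count of 4 of 6 beside these shares is therefore a description and not a test. At an unadjusted p under 0.05 limma also gave 0 of the 6 as higher. The median difference of the 6 genes was -1.93, against 0.00 over all 18182 genes. In sorted bulk samples, fewer cells expressing a gene and less RNA per cell cannot be told apart.

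**Figure D1:**
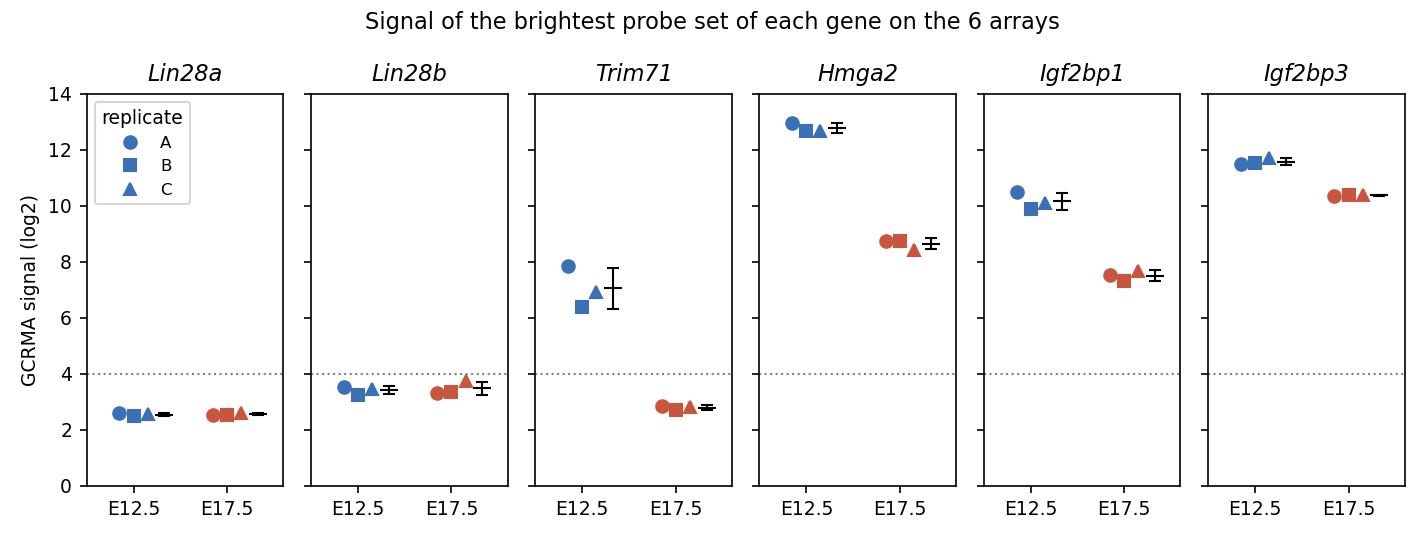
GCRMA signal (log2, vertical axis) of the brightest probe set of each of the 6 genes on the 3 arrays of E12.5 (blue) and of E17.5 (red), with the replicate shown by the symbol and mean ± SD in black; the dotted line marks 4, the top of the dense background range. Trim71, Hmga2, Igf2bp1 and Igf2bp3 did not overlap between ages, and every Lin28a and Lin28b value lay under the line.

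Among the regulators of let-7, Lin28a (brightest probe set 1437752_at) read 2.58, 2.47 and 2.56 on E12.5 arrays A, B and C, and 2.54, 2.54 and 2.61 at E17.5. Lin28b (1430803_at) read 3.51, 3.24 and 3.46 at E12.5, and 3.32, 3.36 and 3.75 at E17.5. The ages overlapped for both genes and every one of these values was under 4. The difference was 0.03 for Lin28a (SE 0.04, 95% interval -0.07 to 0.12, adjusted p = 0.814) and 0.07 for Lin28b (SE 0.15, 95% interval -0.27 to 0.42, adjusted p = 0.870). The second Lin28a probe set stood at 2.07 ± 0.02 and 2.08 ± 0.04. Neither gene was detectable above the background range with these probe sets, which does not show that its transcript was absent.

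Trim71, an RNA-binding ubiquitin ligase and a classical let-7 target, was called lower. Its brightest probe set (1453599_at) read 7.83, 6.38 and 6.93 at E12.5, and 2.86, 2.70 and 2.81 at E17.5. All 3 E12.5 arrays were above all 3 E17.5 arrays, which had dropped into the background range, and E12.5 replicate A was the highest. The means were 7.05 ± 0.73 and 2.79 ± 0.08 (difference -4.26, SE 0.38, 19.1-fold, adjusted p = 0.000639). Because E17.5 lay in the background range, the size depends on how that range is treated, and a floor at 4 for all arrays gave a difference of -3.05. The second probe set stayed under 4 on all arrays (2.95 ± 0.40 and 2.50 ± 0.02) and was not called, and averaging both gave -2.36.

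Hmga2, the AT-hook chromatin protein, fell by 4.12 on the log2 scale from a high level. Its brightest probe set (1422851_at) read 12.96, 12.65 and 12.66 at E12.5, and 8.75, 8.75 and 8.42 at E17.5. The ages were far apart, and the E17.5 values were still well above the background range. The means were 12.76 ± 0.18 and 8.64 ± 0.19 (SE 0.14, 95% interval -4.45 to -3.78, 17.3-fold, adjusted p = 3.68e-05). Over all genes, Hmga2 ranked 49th when differences were ordered from the most negative.

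The Igf2bp genes encode mRNA-binding proteins of closely related sequence. Igf2bp1 (1455223_at) read 10.49, 9.86 and 10.09 at E12.5, and 7.52, 7.29 and 7.68 at E17.5. The ages did not overlap, and the spread within each age was small beside the gap between them. The means were 10.15 ± 0.32 and 7.50 ± 0.20 (difference -2.65, SE 0.20, 95% interval -3.12 to -2.18, 6.28-fold, adjusted p = 0.000341).

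Igf2bp3 (1422610_s_at) read 11.50, 11.51 and 11.70 at E12.5, and 10.35, 10.36 and 10.38 at E17.5. The ages did not overlap here either, but the gap was narrow and the E17.5 signal stayed high. The means were 11.57 ± 0.11 and 10.36 ± 0.02 (difference -1.21, SE 0.09, 95% interval -1.43 to -0.98, 2.31-fold, adjusted p = 0.000403). The suffix of this probe set marks it as one that can match several transcripts, and among probe sets without that mark the brightest differed by -0.80 and was not called (adjusted p = 0.0507; 4.31e-06 to 0.0507 over the 20 alternatives).

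All 4 genes were also called lower in the averaged fit. There the differences were -4.25 for Trim71 (adjusted p = 0.00428), -4.17 for Hmga2 (adjusted p = 0.000399), -2.60 for Igf2bp1 (adjusted p = 0.00208) and -1.20 for Igf2bp3 (adjusted p = 0.00370). Leaving out any 1 array also left all 4 genes called lower.

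The falls of Hmga2, Igf2bp1 and Igf2bp3 were compared in pairs within arrays, as were those of Trim71 and Hmga2. Each gene was taken at its brightest probe set. The pairs are neighbours in the order of these same falls, so the comparison describes that order and does not test it. Within each array, the signal of Hmga2 minus that of Igf2bp1 ran from 2.47 to 2.79 at E12.5 and from 0.74 to 1.46 at E17.5. The signal of Igf2bp1 minus that of Igf2bp3 ran from -1.65 to -1.01 at E12.5 and from -3.07 to -2.70 at E17.5. Neither of these overlapped between ages, with a two-sided exact permutation p = 0.1 for each, the smallest that 3 arrays against 3 allow. Trim71 minus Hmga2 overlapped (-6.27 to -5.13 and -6.05 to -5.61, exact permutation p = 0.8). That pair cannot be ordered, since Trim71 was in the background range at E17.5, and with the floor at 4 the differences were -3.05 for Trim71 and -4.12 for Hmga2. With a Benjamini-Hochberg adjustment over these 3 pairs none could pass 0.05.

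**Figure D2:**
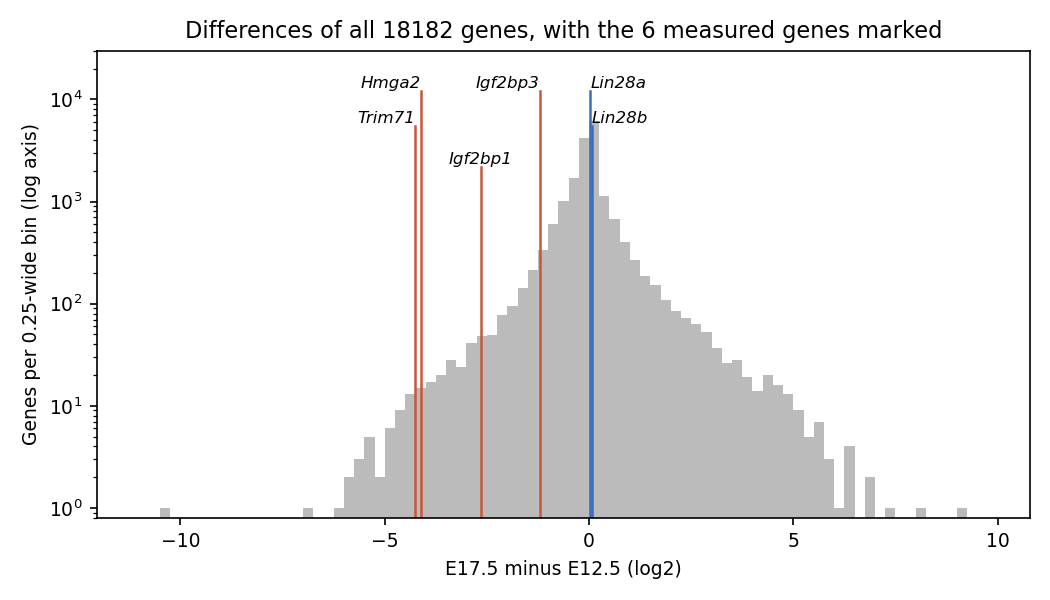
Number of genes (log axis) by their difference between ages (E17.5 minus E12.5, log2, in bins 0.25 wide) for all 18182 genes, with the 6 measured genes marked in red where called lower and in blue where not called. Trim71 (-4.26) and Hmga2 (-4.12) lie far in the left tail, Igf2bp1 (-2.65) and Igf2bp3 (-1.21) nearer the centre, and Lin28a and Lin28b at the centre.

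The other probe sets tell how far each gene's result rests on 1 sequence. Over all 44994 probe sets, with p-values adjusted over all of them, 8.89% were called in either direction, 4.35% as lower and 4.54% as higher. Of the 19 probe sets here 11 were called lower and 0 higher, and 15 had all E12.5 arrays above all E17.5 arrays, against 12.8% of all probe sets. Probe sets of a gene measure the same RNA and are not independent.

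The 3 bright Hmga2 probe sets fell alike. The second read 12.38, 12.02 and 12.23 at E12.5, and 7.67, 7.71 and 7.68 at E17.5 (difference -4.52, SE 0.13, adjusted p = 7.15e-05). The third read 12.58, 11.85 and 11.70, and then 7.91, 7.72 and 7.37 (difference -4.38, SE 0.27, adjusted p = 0.000455). Their intervals overlapped that of the brightest one. The fourth stayed under 4 on every array (2.93 ± 0.58 and 2.35 ± 0.02), was not called, and says little about the transcript.

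All 4 Igf2bp1 probe sets were called lower, by 2.35 to 2.83. The second read 9.10, 9.85 and 9.84 at E12.5, and 7.16, 7.22 and 5.93 at E17.5, where replicate C was lower than A and B (difference -2.83, SE 0.41, adjusted p = 0.00929). The third differed by -2.49 (SE 0.30, adjusted p = 0.00496) and the dimmest by -2.35 (SE 0.29, adjusted p = 0.00525). The direction of the Igf2bp1 fall was thus shared by every probe set of the gene. The size is less certain for the dimmest, which read 4.45, 3.94 and 3.55 at E17.5, at the edge of the background range. With the floor at 4 its difference was -2.18, and its suffix marks it as one that can match several transcripts.

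Igf2bp3 was less uniform. All 6 probe sets had every E12.5 array above every E17.5 array, but only 3 were called, with differences of -1.21, -1.58 and -1.70. The other 3 differed by -0.99 (SE 0.29, adjusted p = 0.102), -0.80 (SE 0.22, adjusted p = 0.0871) and -0.82 (SE 0.29, adjusted p = 0.177). On the first pair of these, E17.5 replicate C (10.26 and 9.49) stood above A and B (9.69 and 9.74, and 8.91 and 8.99). On the brightest probe set the 3 arrays nearly coincided. Without E17.5 replicate C the probe set at -0.80 was called (-0.98, adjusted p = 0.0408; 0.000314 to 0.277 over its 17 alternatives).

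**Figure D3:**
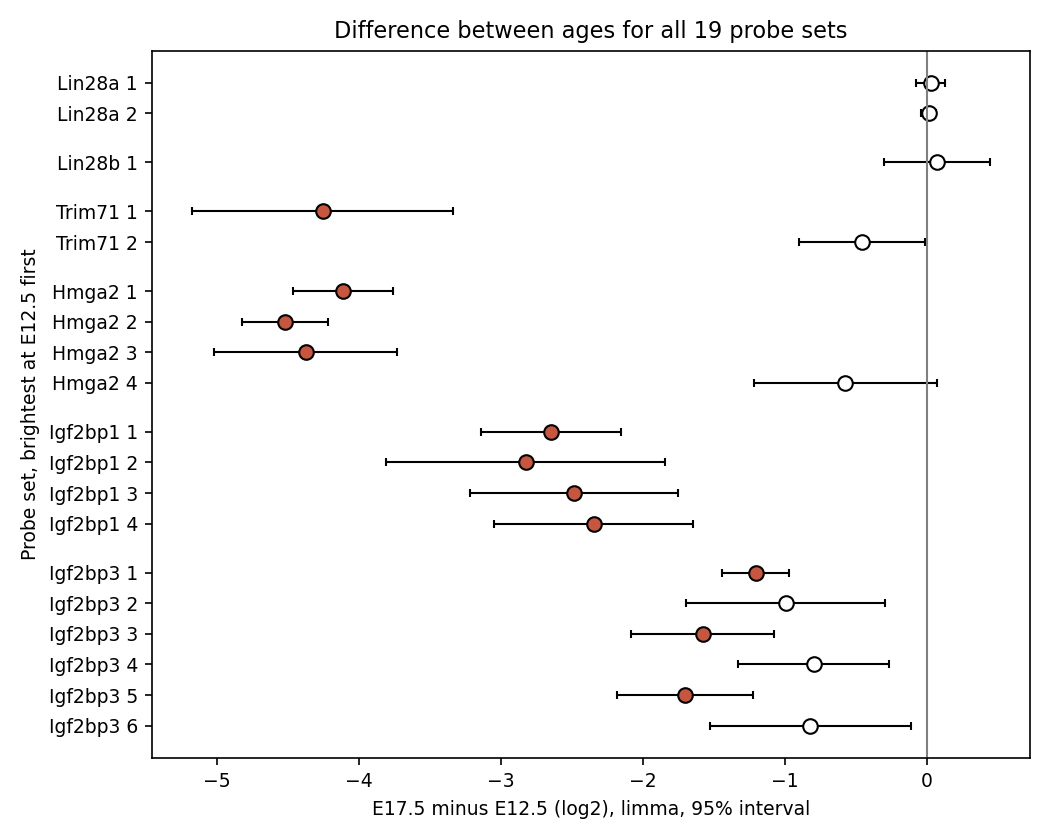
Difference between ages (E17.5 minus E12.5, log2) with limma's 95% interval for the 19 probe sets, numbered within each gene from the brightest at E12.5; filled points are called lower with p adjusted over all 44994 probe sets. The bright probe sets of Hmga2 lie between -4.52 and -4.12, those of Igf2bp1 between -2.83 and -2.35 and those of Igf2bp3 between -1.70 and -0.80, while the second probe sets of Trim71 (-0.46) and Lin28a (0.01) lie near 0.

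The sequence upstream of the start was examined because 4 of these genes were lower together. RefSeq promoters (GRCm38.p6) were found for 3 of the 4, Hmga2, Trim71 and Igf2bp3, and for Lin28b and Lin28a. The 250 bases before the start are shown for the 3 genes that fell and for Lin28b, written 5′ to 3′ along the gene's strand, which is minus in each case. Capitals mark the motifs searched on both strands: CANNTG (an E-box, which includes CACGTG, the form bound by Myc), GGGCGG or CCGCCC (a GC box), CCAAT or ATTGG, and TATAAA or TTTATA.
Hmga2 (chr10:120476470-120476719): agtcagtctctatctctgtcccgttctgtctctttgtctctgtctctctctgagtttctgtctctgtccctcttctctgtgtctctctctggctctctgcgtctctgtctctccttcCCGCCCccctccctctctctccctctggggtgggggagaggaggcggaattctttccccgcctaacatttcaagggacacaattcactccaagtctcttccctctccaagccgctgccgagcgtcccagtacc
Trim71 (chr9:114564370-114564619): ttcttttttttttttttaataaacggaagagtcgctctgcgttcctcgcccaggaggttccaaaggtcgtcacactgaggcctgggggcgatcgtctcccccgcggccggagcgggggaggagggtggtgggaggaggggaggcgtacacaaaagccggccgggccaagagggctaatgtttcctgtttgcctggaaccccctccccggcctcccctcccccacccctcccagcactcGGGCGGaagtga
Igf2bp3 (chr6:49214955-49215204): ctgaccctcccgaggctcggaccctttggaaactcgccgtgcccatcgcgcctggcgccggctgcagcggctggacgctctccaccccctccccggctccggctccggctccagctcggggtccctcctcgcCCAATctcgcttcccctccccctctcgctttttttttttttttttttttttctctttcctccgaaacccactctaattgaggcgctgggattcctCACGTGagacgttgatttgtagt
Lin28b (chr10:45470202-45470451): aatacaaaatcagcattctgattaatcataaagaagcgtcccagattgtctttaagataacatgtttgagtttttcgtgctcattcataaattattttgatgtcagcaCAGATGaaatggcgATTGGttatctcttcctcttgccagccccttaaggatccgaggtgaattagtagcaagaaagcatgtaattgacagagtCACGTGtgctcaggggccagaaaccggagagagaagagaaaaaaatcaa

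No motif was common to the 3 promoters of genes that fell. Hmga2 and Trim71 each held 1 GC box, which 32.7% of 32841 promoters of the same length held, and no E-box. Igf2bp3 held 1 CACGTG, a form found in 6.02% of all promoters, and Lin28b held it too, beside a second E-box. An E-box of any kind was found in 66.2% of promoters and a CCAAT or ATTGG in 33.9%, while the TATAAA form, in 12.4% of all, was in none of the 4. The G and C content was 56.4% for Hmga2, 62.8% for Trim71, 60.4% for Igf2bp3 and 39.2% for Lin28b, against a median of 52.4%. The Lin28a window, which is not shown, held none of these motifs and had 61.2%. This content therefore did not separate the genes that fell from those that did not. These matches are descriptions of the letters in these windows.

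Genes around this group were described from 5 lists of known partners and targets, which leave out the 6 genes themselves. Of 29 measured classical let-7 targets 13 were lower, 1 was higher and 15 were not called, with a median difference of -0.63. That is 13 of 29 lower, against 8.73% of all genes called lower and a median of 0.00. Of genes with an E12.5 mean of at least 6, 15.1% were called lower. The list was chosen with earlier results of these data known. Ccnd2, the cyclin D2 gene, read 12.56, 12.73 and 12.65 at E12.5, and 9.52, 9.63 and 9.54 at E17.5 (difference -3.08, SE 0.09, adjusted p = 2.65e-05). Its ages were far apart and its replicates close together. Plagl2, a zinc finger transcription factor, fell by 2.39, Fign, a microtubule-severing ATPase, by 2.31, and the proto-oncogene Mycn by 2.25.

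Ccnd1 (cyclin D1) fell by less, with a difference of -0.89 (SE 0.17, adjusted p = 0.0133). Its call was lost with its most variable probe set (-0.80, adjusted p = 0.405; 0.00226 to 0.405 over its 20 alternatives) and at a threshold of 0.01. Myc read 7.77, 8.92 and 9.52 at E12.5 and 8.07, 8.05 and 7.28 at E17.5 (difference -0.94, SE 0.46, adjusted p = 0.254), so its ages overlapped. Nras differed by -0.15 (SE 0.26, adjusted p = 0.840) and the growth factor receptor gene Igf1r by -0.59 (SE 0.19, adjusted p = 0.0862). The 1 rise was that of Irs2, an adaptor of the insulin and IGF receptors, at 1.36 (SE 0.34, adjusted p = 0.0396). It did not pass in 10 of 20 alternatives, among them those without replicate B or C of E12.5 or without replicate A or B of E17.5 (adjusted p = 0.108 to 0.151; 9.58e-05 to 0.151 over all alternatives). The count of 13 was 8 without E12.5 replicate C and 9 in the averaged fit, and 2 of the 13, Arid3b and Igdcc3, had means under 4 at both ages.

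Of 21 genes of let-7 biogenesis and turnover, 6 were lower, 1 was higher and 14 were not called (median -0.05). Dicer1, the nuclease that cuts the precursor, read 9.51, 9.28 and 9.48 at E12.5, and 8.43, 8.47 and 7.62 at E17.5 (difference -1.25, SE 0.25, adjusted p = 0.0158). Its ages did not overlap, but the call was lost without E12.5 replicate C (adjusted p = 0.0563; 0.000120 to 0.0563 over its 20 alternatives). Tut4, the uridylyltransferase that Lin28 recruits to the precursor, read 11.85, 11.95 and 12.25, and then 11.18, 11.13 and 11.12 (difference -0.87, SE 0.12, adjusted p = 0.00407). The Tut4 call was lost with the mean of its probe sets (-1.13, adjusted p = 0.0516) and with the most variable one (-1.45, adjusted p = 0.0591; 4.86e-05 to 0.0591 over its 20 alternatives). Xpo5, the export factor of precursors, differed by -1.11 (SE 0.30, adjusted p = 0.0478), a call lost in 12 of 20 alternatives. The exonuclease gene Dis3l2 stood at 5.28 ± 0.18 and 5.28 ± 0.12. The splicing regulator gene Mbnl1 rose by 1.08 (SE 0.12, adjusted p = 0.00149), and with the mean of its probe sets it was at 0.45 and not called. The count of 6 was 2 without E12.5 replicate C, and 3 in the averaged fit and without E17.5 A or B.

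Of 19 mRNA clients and protein partners of the Igf2bp and Lin28 proteins, 1 was higher, 1 was lower and 17 were not called (median -0.06). Igf2, the client mRNA that gave the Igf2bp family its name, had means of 13.91 ± 0.12 and 14.07 ± 0.08 (difference 0.16, SE 0.10, adjusted p = 0.390). Its arrays did not overlap between ages but it was not called, and it turned to -0.26 with the mean of its probe sets. It was high on every array while Igf2bp1 and Igf2bp3 fell. The rise was that of Cd44, the hyaluronan receptor, at 6.40 (SE 0.27, adjusted p = 6.38e-05), and the fall was that of Ccnd1. Without E17.5 replicate C the counts were 3 and 3, and without E12.5 replicate A they were 1 higher and 2 lower.

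Of 14 other high mobility group and architectural chromatin genes, 2 were higher, 0 were lower and 12 were not called (median -0.07), where 8.21% of all genes were called higher. The linker histone gene H1f2 rose by 1.84 (SE 0.12, adjusted p = 0.000239) and Supt16, a histone chaperone gene, by 0.92 (SE 0.11, adjusted p = 0.00218). Supt16 was at 0.27 with the mean of its probe sets and at -0.37 with the most variable one, not called in either. At an unadjusted p under 0.05 limma gave 1 of the 14 as lower. Hmgn1, a nucleosome-binding member, read 15.22, 15.02 and 15.00 at E12.5 and 15.08, 15.11 and 15.11 at E17.5, so its ages overlapped. This gene was named after its values were seen and does not stand for the list.

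Of 27 further genes known for expression in embryos or for a switch with developmental stage, 5 were higher, 7 were lower and 15 were not called (median 0.00), against 8.21% of all genes called higher and 8.73% called lower. Bcl11a, a transcription factor gene of the fetal to adult globin switch, read 10.33, 10.35 and 10.08 at E12.5, and 5.64, 5.84 and 5.97 at E17.5 (difference -4.44, SE 0.16, adjusted p = 4.64e-05). Crabp2, a retinoic acid binding protein, fell by 2.54, and Mycn belongs to this list as well. Dlk1, an imprinted gene of fetal tissues, went the other way and rose by 5.64 (SE 0.64, adjusted p = 0.00179). The imprinted genes Plagl1 and Cdkn1c differed by 0.47 and 0.46 (adjusted p = 0.0198 and adjusted p = 0.0294), each with the call lost in 8 of 20 alternatives. The count of 5 rises was 1 in the averaged fit and without E17.5 A or B, and 2 without E12.5 B or C.

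**Figure D4:**
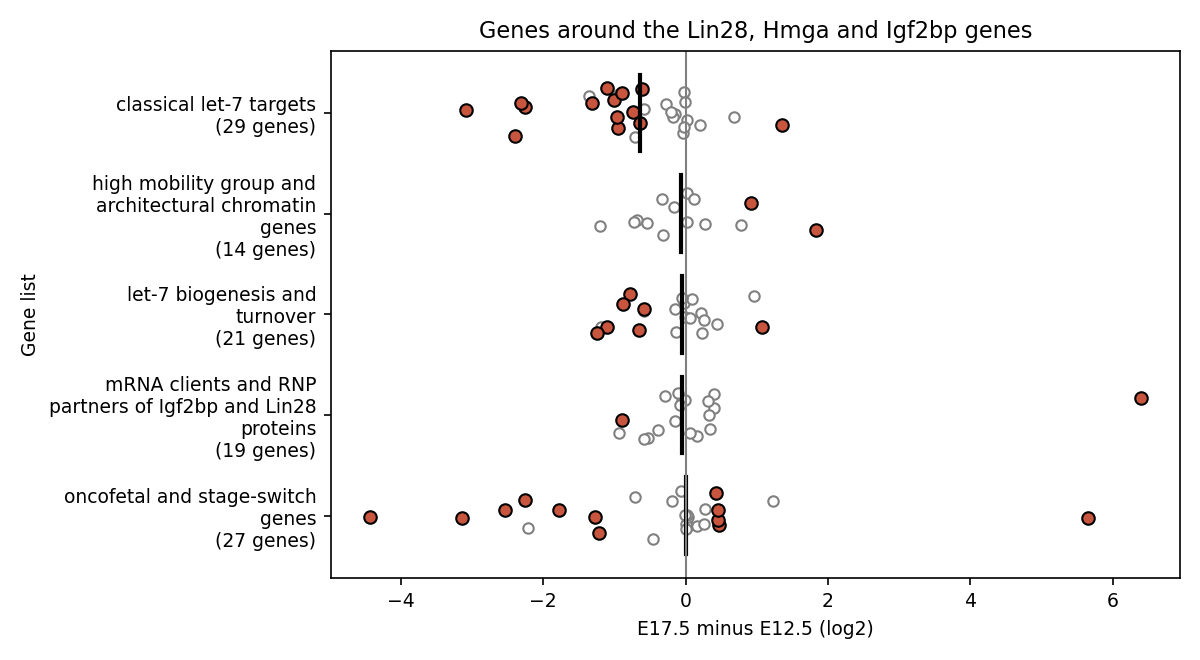
Difference between ages (E17.5 minus E12.5, log2) of each measured gene in the 5 lists, with filled red points for genes called in either direction, open points for genes not called, and a black bar at the list's median; points are spread vertically only to be seen. The median of the let-7 targets is -0.63 and those of the other 4 lists lie between -0.07 and 0.00.

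The profiles of the 4 genes that fell were also compared with those of 9233 genes whose higher age mean was at least 6. The measure was the root mean squared difference over the 6 arrays after each gene's own mean was subtracted. For Hmga2 the nearest were Cxxc4 (0.161), a Wnt signalling inhibitor, D430019H16Rik (0.165) and Cdo1 (0.210), a cysteine dioxygenase. For Trim71 they were Pcdh17 (0.234), a protocadherin, Adgrb3 (0.266), an adhesion receptor, and Emb (0.280), a membrane glycoprotein. Trim71 and Hmga2 were at 0.360 from each other.

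For Igf2bp1 the nearest were Rasef (0.0979), St6gal1 (0.127), a sialyltransferase, and Sipa1l1 (0.160). Igf2bp3 was nearest to Rad54l2 (0.0313), a helicase, Ppa1 (0.0519), a pyrophosphatase, and Zfp623 (0.0754). Igf2bp1 and Igf2bp3 were at 0.759 from each other, farther than either was from its nearest genes. With 6 arrays in 2 ages this measure mostly reflects the size of the difference between ages.

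Markers of other cells moved with age as well, and their part in these falls was not tested. Of 15 erythroid genes 11 were measured, and their summed signal (log2 of the sum of linear signals) was 13.04 to 14.94 at E12.5 and 7.37 to 7.48 at E17.5. Of these, 3 were lower, namely the embryonic globin genes Hbb-y (14.34, 14.89 and 13.02, then 4.46, 3.23 and 3.32), Hbb-bh1 (difference -4.11) and Hba-x (-4.33), and 1, Ermap, was higher (3.32). Hbb-y was by far the brightest of the list at E12.5. Hbb-bh1 and Hba-x had E17.5 means of 2.75 and 2.65, in the background range. Gata1, Klf1, Epor, Hba-a1 and Hba-a2 were under 4 on all arrays. All 22 limb mesenchyme and connective tissue genes were measured, and 11 were lower and 3 higher. Their median difference was -1.69. Among the lower were Lhx9 (-6.24), Hoxd13 (-5.46), Twist1 (-4.71) and Msx1 (-4.44), and the 3 higher were Dpt (9.04), Col1a1 (2.76) and Postn (1.73). Lhx9, Twist1 and Msx1 at E17.5 (means 2.53, 3.83 and 3.77) and Dpt at E12.5 (mean 2.10) were in the background range. The sizes of those differences depend on how that range is treated. The sum of the list was 13.45 to 14.91 at E12.5 and 14.49 to 14.98 at E17.5, with Tbx5 and Msx2 under 4 throughout. It mostly follows bright genes such as Col3a1 (means 12.60 and 13.97, not called), so it does not show the falls of dimmer ones. E12.5 replicate B was the array with 14.91, and A and C, at 13.45 and 13.58, carried these markers too. Without replicate B the differences were -4.59 for Trim71, -4.17 for Hmga2, -2.79 for Igf2bp1 and -1.24 for Igf2bp3.

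Of 10 cartilage genes, all measured, 2 were lower (sum 11.83 to 12.71, then 9.47 to 10.53). Of 8 measured Schwann cell and neural crest genes of 10, 2 were lower (12.52 to 13.10, then 9.83 to 10.18), with Sox10, Foxd3, S100b, Cdh19 and Dhh under 4 throughout. Of 10 epidermal genes 3 were lower and 1 higher (9.78 to 10.39, then 10.37 to 11.49), with Krt8 under 4. The median difference of the epidermal list was -1.075. Of 12 endothelial genes 1 was higher (8.04 to 9.09, then 10.45 to 10.64), with Pecam1, Tie1 and Flt1 under 4. The median difference of the endothelial list was -0.255. A sum mostly follows the bright genes of a list, so the higher sums of these 2 lists do not show a rise of each list as a whole. Of 12 macrophage and leukocyte genes 2 were higher and 1 lower (8.27 to 9.43, then 8.21 to 8.52), with Ptprc, Aif1, Fcgr3, C1qa and Tyrobp under 4.

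The 13 measured myogenic genes of 14 summed to 14.89 to 15.29 at E12.5 and to 15.30 to 15.60 at E17.5. Of these, 4 were higher, namely Pax7 (0.91), Myog (1.86), Chrna1 (2.53) and Itga7 (6.84), and 2 lower, Pax3 (-2.56) and Eya1 (-1.29). Itga7 was in the background range at E12.5 (mean 2.22), so the size of its difference depends on how that range is treated. The sum of 11 measured cycling genes of 12 overlapped between ages, with all 3 E17.5 arrays (16.01 to 16.04) inside the E12.5 range. Limma called 0 of them, and at an unadjusted p under 0.05 gave 0 as higher and 1 as lower.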

How the data were processed

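RNA of 6 samples was measured on Affymetrix arrays after amplification of 100 ng in a two-cycle 3′ protocol, per the labels. The authors deposited log2 values, 1 per probe set and array. The submitters' processing notes name GCRMA, without a version in what was used here. Probe sets were named by the platform annotation, with symbols updated by entrez ID to RefSeq (GRCm38.p6). Of 44994 probe sets, 34909 carried 1 symbol, 34705 of them matched by ID, 931 carried several and 9154 were unnamed here. Each gene was represented by its brightest probe set over all arrays.

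Ages were compared with limma 3.58.1 in R 4.3.3 (lmFit, eBayes with an intensity trend, no filter), adjusted over all 18182 genes, or over all probe sets for single probe sets, and tested on simulated data. The 8 genes and the lists were chosen with earlier results of these data known. Named genes are the measured members, up to 3 rises and 3 falls per list with a higher age mean of at least 6, fixed genes such as Igf2 and Nras, and the 3 nearest profiles per member. Other genes (Arid3b, Igdcc3, Hmgn1 and the markers) were named after their values were seen. Alternatives changed the variance prior, array weights, filter, floor, normalization, probe set, threshold, block or arrays. Figures were drawn with matplotlib 3.10.9.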

Additional observations from a re-analysis of the deposited data

How the results depend on the processing

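The count of measured genes called lower was 4, and 3 under 2 of 20 alternatives: a filter at a mean of at least 6, which removed Trim71 from the test, and dropping the _s_ and _x_ probe sets, which lost Igf2bp3. The count called higher was 0 in all. Of 41 called single results, 31 were never lost. Over all genes, array weights gave 3205 higher and 5219 lower, a threshold of 0.01 gave 841 and 701, and leaving out 1 array gave 969 to 1553 higher and 770 to 1776 lower. Lower genes were 825 in the averaged fit. Among the genes of the 5 lists (10 higher, 25 lower), array weights gave 26 and 42 and a threshold of 0.01 gave 5 and 13. Higher genes there were 6 with the floor at 4, 5 in the averaged fit and 5 with the most variable probe set; leaving out 1 array gave 5 to 15 higher and 15 to 27 lower.

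The replicate letters did not pair the samples, since deviations of same-letter arrays correlated at -0.38, 0.25 and -0.07. With the replicate letter as a block, 1014 genes were lower, 5 list genes were higher, and the measured genes called lower were still 4.

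Differences changed sign in 19 fits, and the cause was not tested. Most were near 0, but Supt16 (0.92, called) and Igf1r (-0.59, not called) were not. With array weights Lin28a was at -0.016, its second probe set at -0.018, Lin28b at -0.11 and Nras at 0.020. That second probe set was at -0.010 when centred on bright genes, and Dis3l2 at 0.12 after quantile normalization. With the most variable probe set Igf1r was at 0.073, Igf2 at -0.67 and Supt16 at -0.37, and with the mean of probe sets Igf2 was at -0.26. Leaving out 1 array gave -0.0067 to 0.048 for Lin28a, -0.010 to 0.025 for its second probe set, -0.063 to 0.15 for Lin28b, -0.37 to 0.13 for Nras and -0.098 to 0.077 for Dis3l2. Signals under 4 limit what Lin28a, Lin28b and Trim71 at E17.5 can show, and 3 arrays per age limit the precision.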
